A study of Mus musculus with 3 samples.

Results

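The genes described here are 51 lysosomal genes of the mouse: proteases, glycan and lipid hydrolases, their cofactors, lysosomal membrane proteins, the machinery that sorts enzymes to the organelle, subunits of its proton pump, and the transcription factors that control the set. They were chosen by name for their known role, with earlier results of these data known. All 51 were found in the GENCODE M21 annotation of GRCm38. The data are 1 list of 19301 predicted m6A sites in RAW264.7 cells, and 126 of these sites (0.653%) lay inside the span of 31 of the 51 genes on the same strand. The other 20 genes held no listed site.

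RAW264.7 is a mouse macrophage-like cell line that was grown untreated in standard serum-containing medium, with no second genotype, treatment or time point. The series description calls the line human, but the organism label is mouse and every one of the 19301 sites fell on an A of the mouse genome. Poly(A)+ RNA of 3 replicates was profiled by miCLIP2, in which an antibody against m6A is crosslinked to RNA by UV light and leaves truncations at the modified base and C-to-T transitions at the C next to it in the sequenced cDNA. The deposited list combines the 3 replicates, so no spread between replicates and no test could be computed, and the depth behind a single site is unknown.

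Lysosomes are acidic organelles in which proteins, glycans and lipids taken up by endocytosis, phagocytosis or autophagy are degraded. Most of their enzymes receive a mannose 6-phosphate tag in the Golgi, are carried by mannose 6-phosphate receptors and become active when the vacuolar proton pump has acidified the lumen. The genes are switched on together by TFEB, TFE3 and MITF, and inherited loss of single enzymes causes lysosomal storage disease. Macrophages, which digest what they engulf, depend on them heavily. m6A is a methyl mark that a nuclear methyltransferase complex places on A in DRACH motifs (D is A, G or T in DNA letters, R is A or G, H is A, C or T), mostly in long exons and near stop codons, and it affects the splicing, translation and decay of mRNA.

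Each site in the list carries a prediction score of m6Aboost, a classifier that reads the sequence around the A, the transcript region and the miCLIP2 signal. Sites above 0.5 were deposited. The score is the confidence of the call and not a methylation level, and motif and region shares depend in part on the model that used them. The windows of 21 nt below are centred on the highest-scoring site of the 10 genes with most sites, with ties at 5 sites settled by the higher best score, and of the leading gene of each role that these did not cover. They are written 5' to 3' on the coding strand of GRCm38 in DNA letters, with the 5 bases around the predicted m6A in capitals and the modified A as the middle capital.
Sgsh (chr11:119344564-119344584, minus strand, 3' UTR): acctccagGAACTgctcctcc
Neu1 (chr17:34935134-34935154, plus strand, 3' UTR): acagatacGAACTcagggaac
Ctsz (chr2:174427743-174427763, minus strand, 3' UTR): cagagtgtGGACTgcatcccg
Mitf (chr6:98017793-98017813, plus strand, CDS): gagcgcatGGACTttccctta
Ctsb (chr14:63142691-63142711, plus strand, 3' UTR): aaaagaacGAACActtcacga
Gnptab (chr10:88433887-88433907, plus strand, CDS): actaggcgTGACTgtgtccaa
Naglu (chr11:101076950-101076970, plus strand, CDS): ggaggcaaGGACCgcctacct
Gusb (chr5:129989286-129989306, minus strand, 3' UTR): ggctttgtGAACTcttgaaag
Manba (chr3:135570455-135570475, plus strand, 3' UTR): aattcagtGGACActggggac
Smpd1 (chr7:105557765-105557785, plus strand, CDS): aaacctatGGACTtccagatg
Scarb2 (chr5:92444231-92444251, minus strand, 3' UTR): acctaatgGGACTtacctgtt
Npc2 (chr12:84757074-84757094, minus strand, 3' UTR): gaggccatGGACGgagtgggg
Atp6ap1 (chrX:74304392-74304412, plus strand, 3' UTR): acagccatGAACTtgaggttc
The Npc2 window is the one among these whose centre is not a DRACH motif, because its 5 bases end in G. Its score was nevertheless 0.845. Mitf and Ctsd also had a site outside DRACH with a score of at least 0.7, and these windows are shown for that reason.
Mitf (chr6:98018044-98018064, plus strand, CDS): atcctgatGGACGatgccctc
Ctsd (chr7:142376280-142376300, minus strand, 3' UTR): gctgagatGGATTgtcttgtc
The Mitf site, at a score of 0.814, had the same 5 bases as that of Npc2. The Ctsd site, at 0.724, had no C after the A.

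At least 1 site was listed in 31 of the 51 lysosomal genes, or 60.8% (95% Wilson interval 47.1 to 73.0%). Over all 21951 protein-coding genes of the annotation, the lysosomal genes included, the share was 23.1%. That background includes genes that RAW264.7 cells do not express, which cannot give a site, and the list holds no expression values. For a gene without a site, too few reads and a lack of methylation cannot be told apart. At least 5 sites were listed in 12 of the 51 genes (23.5%, 14.0 to 36.8%), against 6.98% of all protein-coding genes. Among genes with a site these shares lay closer together, at 38.7% (23.7 to 56.2%) of the lysosomal genes and 30.2% of all, and the median was 3 sites per gene in both. At least 10 sites were listed in 1 lysosomal gene, or 3.23% (0.572 to 16.2%) of those with a site, against 7.38% of all genes with a site. The intervals given here cover counting error only, and sites of 1 gene share its reads.

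The sites were spread unevenly over the roles. The 12 genes with at least 5 sites held 84 of the 126. All 3 transcription factors, 8 of 11 proteases and 8 of 13 glycan hydrolases had a site, while 3 of 8 membrane proteins and 2 of 5 proton pump subunits did. The 3 membrane proteins had 1 site each, and the 8 glycan hydrolases had 48 together. Scaled to the motifs present, 8.70% of the DRACH A in the spliced transcripts of glycan hydrolases with a site were listed. Sgsh alone held 14 of these 42 listed DRACH A. The share was 7.84% for the lipid and thioester hydrolases and 6.25% for the transcription factors. It was 4.82% for the proton pump, 4.81% for the cofactors and carriers and 4.26% for the proteases. Sorting and tagging genes had 2.89% and membrane proteins 1.13%, against 5.12% over all lysosomal genes with a site. Leaving out genes without a site raises the share of each role that has them, so these values cannot rank the roles. Over all protein-coding genes with a site the share was 4.63%. Roles were not tested against each other.

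**Figure D1:**
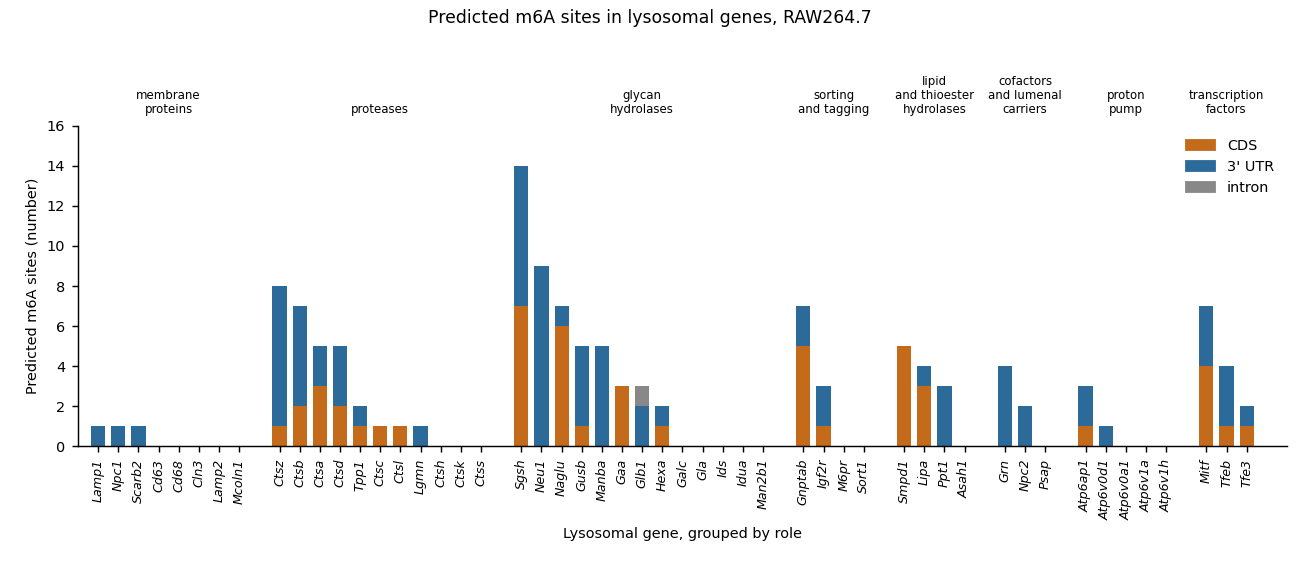
Number of predicted m6A sites (y axis) in each of the 51 lysosomal genes (x axis), grouped by role and coloured by the region of the transcript with the longest CDS. Sgsh has the tallest bar at 14 sites, and 20 genes have none.

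Among the glycan hydrolases, Sgsh, the sulfamidase that removes N-sulfate groups from heparan sulfate, had 14 sites, the most of any lysosomal gene. All 14 lay in its last exon of 3356 nt, 7 of them coding on the chosen transcript and 7 in the 3' UTR, and 7 were within 200 nt of the stop codon. The scores ran from 0.503 to 0.929, and the best one, in the window shown above, was 1706 nt into the 3' UTR. The last site, 2440 nt past the stop codon, was the farthest downstream of all lysosomal sites. All 14 were at DRACH, so that 14 of 90 DRACH A in the transcript (15.6%, 9.50 to 24.4%) were listed.

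Neu1, the sialidase that trims terminal sialic acid, had 9 sites, all in the 3' UTR between 19 and 730 nt past the stop codon. Its scores ran from 0.513 to 0.953. The lowest-scoring site and one at 0.931 were adjacent bases, 323 and 324 nt past the stop codon, and the best site lay 8 nt upstream of the pair. The weaker of the adjacent calls was at GGAAC and the stronger at GAACT, 2 frames of one stretch of sequence that lies partly in the Neu1 window above. Of 52 DRACH A in Neu1, 8 were listed (15.4%, 8.01 to 27.5%).

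Naglu, which acts with Sgsh in the breakdown of heparan sulfate, showed another layout. Of its 7 sites 6 were in the CDS, and all 7 in a last exon of 1432 nt. They stretched from 998 nt before the stop codon to 115 nt after it, with scores of 0.556 to 0.808.

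Gusb, the beta-glucuronidase, had 5 sites and the highest median score of the 12 genes, 0.923. The 4 in the 3' UTR, 83 to 318 nt past the stop codon, scored 0.864 to 0.949. The remaining site was at a GGACT in the CDS of the first exon, 1816 nt before the stop codon, and scored 0.923. With 3 sites of at least 0.9, Gusb held more such sites than any other lysosomal gene. Manba, the beta-mannosidase, had 5 sites, all in the 3' UTR between 7 and 273 nt past the stop codon. They scored 0.611 to 0.909, and the lowest was at GGATT, outside DRACH.

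Of the other glycan hydrolases, Gaa, the acid alpha-glucosidase that degrades glycogen, had 3 sites with scores of 0.520, 0.602 and 0.850. All 3 lay 2716 to 2588 nt upstream of the stop codon, in the CDS of exon 2 of 20, which is 591 nt long, and Gaa was the only gene of the 31 with no site in its last exon. Glb1, the beta-galactosidase, had 2 sites in the 3' UTR and 1 in an intron, with a best score of 0.761. The intronic site is inside Tmppe, a gene nested in Glb1 on the same strand, whose CDS it falls in. Hexa, the alpha subunit of beta-hexosaminidase, had 1 CDS and 1 3' UTR site, the better at 0.676.

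Among the proteases, Ctsz, the carboxypeptidase cathepsin Z, had 8 sites on a spliced transcript of 1441 nt, or 5.55 per kb, the highest density of the 31 genes. Its 3' UTR of 379 nt held 7 of them, 57 to 283 nt past the stop codon. The GGACT shown above had the highest score of all lysosomal sites, 0.955. Of these 7 sites 2 were outside DRACH, a TTACT at 0.684 and a GGATG at 0.505, and the single CDS site, 539 nt before the stop codon, scored 0.510. Of 36 DRACH A in Ctsz, 6 were listed (16.7%, 7.87 to 31.9%), the largest share of the 31 genes.

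Ctsb, the cysteine protease cathepsin B, had 7 sites in a much longer transcript. Its 3' UTR runs for 3594 nt, but the 5 sites in it lay between 147 and 514 nt past the stop codon. The scores of 3 of them, 22 and 16 nt apart, were 0.853, 0.860 and 0.895, and the 2 CDS sites, both at TGACC, scored 0.519 and 0.576.

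Ctsa, the carboxypeptidase that also protects Neu1 and Glb1 from degradation, had 5 sites. The pair in the last exon was at AAACT, 116 and 244 nt past the stop codon, with scores of 0.678 and 0.848 (the better at chr2:164839476). The 3 in the CDS, in exons 3, 7 and 9 of 16, scored 0.515 to 0.597. The site in exon 9 was the first base of its exon, and its 5 bases were AGACT in the genome and on the spliced transcript alike. Ctsd, the aspartyl protease cathepsin D, had 5 sites in its last exon, from 38 nt before to 567 nt after the stop codon. A pair of TGACT sites 4 nt apart scored 0.709 and 0.829 (the better at chr7:142376006). All 5 also lie within an intron of Gm49369, a protein-coding gene annotated over Ctsd on the same strand, so they were counted for both genes in the totals over all genes.

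The remaining proteases with a site had 1 or 2. Tpp1, a tripeptidyl peptidase, had a CDS site at 0.804 in exon 4 and a 3' UTR site at 0.616. Ctsc, the dipeptidyl peptidase that activates serine proteases of immune cells, had 1 CDS site at 0.672, and Lgmn, the asparaginyl endopeptidase, had 1 3' UTR site at 0.728. Ctsl, the cysteine protease cathepsin L, had 1 CDS site at 0.818, 34 nt before the stop codon. On the chosen transcript, 1 of 7 annotated for Ctsl, its last exon is the longest of the set at 4864 nt. Of the 132 DRACH A of this transcript 1 was listed (0.758%, 0.134 to 4.17%), the smallest share among the 31 genes. The share depends on that choice, and which transcript the cells use is unknown. No site was listed in Ctsh, Ctsk or Ctss.

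**Figure D2:**
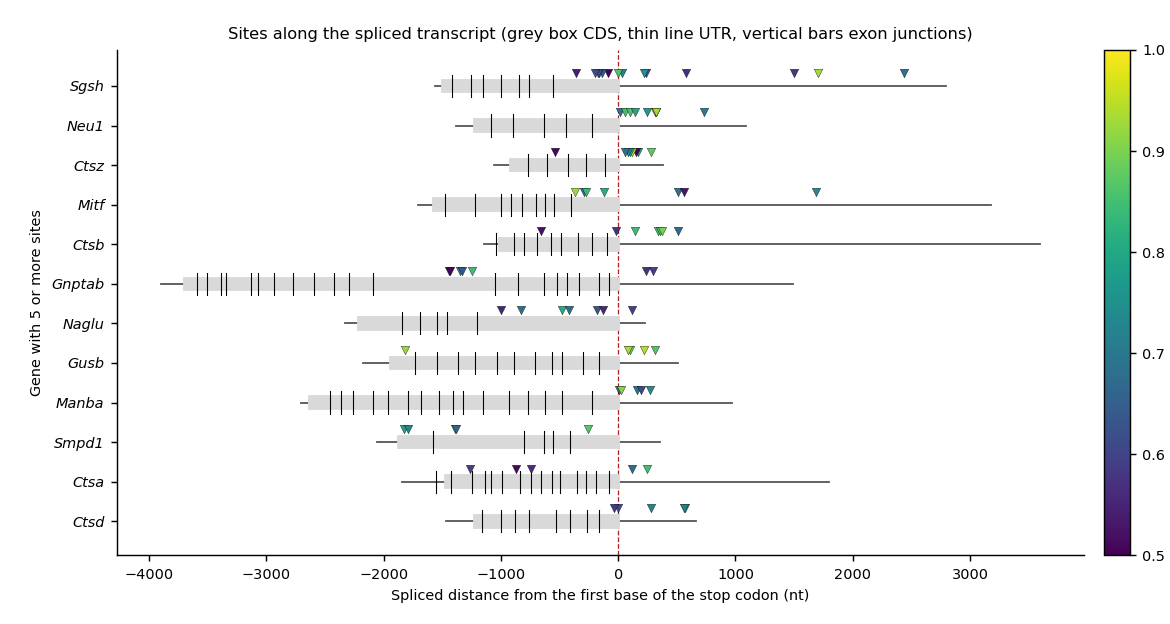
Sites of the 12 lysosomal genes with at least 5 sites, placed by their spliced distance in nt from the first base of the stop codon (x axis), with 1 transcript per line; triangles are sites coloured by prediction score. Neu1 and Manba carry their sites past the stop codon, and 5 of the 7 Gnptab sites lie together in 1 long internal exon.

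Of the lipid and thioester hydrolases, Smpd1, the acid sphingomyelinase, had 5 sites, all in the CDS. They were placed in the first exon of 478 nt (scores 0.727 and 0.788), the internal second exon of 773 nt (0.660 and 0.823) and the last exon (0.869). Lipa, the lipase that releases cholesterol and fatty acids from lipoproteins, had 4 sites, of which 3 were within 200 nt of the stop codon, with scores of 0.714 to 0.787. Ppt1, which removes palmitate from proteins, had 3 sites in the 3' UTR, 592 to 1192 nt past the stop codon, with scores of 0.800 to 0.852. Asah1, the acid ceramidase, had none.

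Of the cofactors and lumenal carriers, Grn, the precursor of the granulins, had 4 sites in the 3' UTR between 16 and 232 nt past the stop codon, with scores of 0.741 to 0.833. All 4 are coding on another annotated transcript. Npc2, which hands cholesterol to Npc1, had 2, both in the 3' UTR. Psap, the precursor of the saposins, had none.

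Of the sorting and tagging genes, Gnptab, the catalytic precursor of the enzyme that starts the mannose 6-phosphate tag, had 7 sites. A single internal exon of 1040 nt, the longest internal exon in the set, held 5 of them between 1446 and 1245 nt before the stop codon, with scores of 0.505 to 0.846. The other 2, in the 3' UTR, scored 0.575 and 0.593. Igf2r, the large mannose 6-phosphate receptor, had 3 sites with scores of 0.755 to 0.841, all in the last of its 48 exons, although its CDS of 7449 nt is the longest of the 31 genes. Neither M6pr, the small receptor, nor Sort1, sortilin, had a site, and Sort1 has 134 DRACH A.

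The 3 transcription factors had 13 sites, all in their last exons, with a median score of 0.819. Mitf had 7, of which 4 were in the CDS between 370 and 119 nt before the stop codon and 3 in the 3' UTR up to 1687 nt past it. Its scores ran from 0.529 to 0.926. Tfeb had 4 sites, a GGACT in the CDS at 0.829 and 3 in the 3' UTR at 0.689 to 0.886. These were 4 of the 40 DRACH A in Tfeb (10.0%, 3.96 to 23.1%). Tfe3 had 2 sites, at 0.819 in the CDS and at 0.923 in the 3' UTR, both within 200 nt of the stop codon.

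The 8 membrane proteins had 3 sites in all. Lamp1, an abundant glycoprotein of the lysosomal membrane, had 1 at 0.776, Npc1, which exports cholesterol, had 1 at 0.754, and Scarb2, the receptor that carries beta-glucocerebrosidase, had 1 at 0.797. All 3 were in the 3' UTR. Lamp2, Mcoln1, Cln3, Cd63 and Cd68 had none. The annotated transcript chosen for Cd68 has no UTR, but sites were counted over the whole span of the gene, and none was listed in it. The 5 pump subunits had 4 sites, which were 4.82% of the DRACH A of the 2 with a site. Atp6ap1, an accessory subunit, had 3 sites with scores of 0.576 in the CDS and 0.848 and 0.921 in the 3' UTR. Atp6v0d1, of the membrane sector, had 1 at 0.898 in the 3' UTR. Atp6v0a1, Atp6v1a and Atp6v1h had none, nor did the glycan hydrolases Galc, Gla, Idua, Ids and Man2b1.

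The genes without a site were about as long as those with one, with a median spliced length of 2686.5 nt for the 20 and 2687 nt for the 31, and they held a median of 52.5 and 56 DRACH A. Their last exons were shorter in the median, 914.5 against 1317 nt, and they had more exons, 14 against 10. The ranges overlapped widely, with last exons of 113 to 4215 nt in the genes without a site and 289 to 4864 nt in those with one. Over all protein-coding genes the median last exon was 1056 nt without a site and 1327 nt with one. There the median spliced length also differed, at 2363 against 3088 nt, and so did the DRACH A, at 48 against 62. The exon count went the other way, with a median of 6 in genes without a site and 9 in those with one.

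Across all 126 sites, 75 (59.5%, 50.8 to 67.7%) were in the 3' UTR, 50 (39.7%, 31.6 to 48.4%) in the CDS and 1 in an intron. Of the 50 CDS sites, 19 also lie in a 3' UTR of another annotated transcript, among them all 7 in Sgsh, all 5 in Gnptab and all 4 in Mitf, and with the 3' UTR of any transcript put first the CDS share was 24.6%. With the CDS of any transcript put first it was 42.9%, and the 3' UTR share was 56.3%. No site was in the 5' UTR, for which the interval reaches 2.96%. For all protein-coding genes, counting a site once for each gene that holds it, 42.1% were in the 3' UTR, 49.8% in the CDS, 2.13% in the 5' UTR and 3.56% in introns. Every lysosomal gene with a site other than Glb1 had all of its sites in coding sequence, 3' UTR or both. The 3' UTR alone was used in 10 genes, the CDS alone in 4 (Ctsc, Ctsl, Gaa and Smpd1) and both in 16.

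Of the 125 exonic sites, 103 (82.4%, 74.8 to 88.1%) were in the last exon, which 30 of the 31 genes used and in which 19 had all of their sites. The share over all protein-coding genes was 68.4%, single-exon genes included. Within 200 nt of the stop codon lay 52 sites (41.6%, 33.3 to 50.4%), in 24 of the 31 genes, against 32.3% over all. A second listed site of the same gene lay within 100 nt for 74 sites (59.2%, 50.4 to 67.4%), against 60.1% over all.

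Counted against the motifs available, the exon classes differed widely. In the last exon, 91 of 1028 DRACH A of the lysosomal genes with a site were listed (8.85%, 7.27 to 10.7%), and within 200 nt of the stop codon 44 of 309 (14.2%, 10.8 to 18.6%). Of the 31 genes, 19 are counted only through sites in the last exon, so the selection of genes with a site raises the last-exon share. In their internal exons these 19 genes add motifs but no listed site, so the contrast between classes depends in part on the selection. In internal exons under 200 nt, 8 of 820 were listed (0.976%, 0.495 to 1.91%), and in those of at least 200 and under 400 nt, 0 of 178 were. In internal exons of 400 nt or more, 10 of 54 were listed (18.5%, 10.4 to 30.8%). All 54 were in 3 genes, Gnptab, Gaa and Smpd1. The other 2 genes with such an exon, Idua and Cd68, had no site and are not counted, and Gaa is counted only through its sites in this exon, so the selection raises this share too. Over all protein-coding genes with a site the shares of these 5 classes were 6.24, 12.7, 0.606, 2.37 and 10.2%. There too, short internal exons had a lower share than last exons and long internal ones, but the window around the stop codon had the highest.

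Within the CDS, 14.3% (9.79 to 20.4%) of the DRACH A in last exons were listed and 1.93% (1.27 to 2.94%) of those in other exons, against 12.8 and 2.97% over all protein-coding genes with a site. Here too only genes with a site are counted, and 19 of the 31 enter only through sites in the last exon. The contrast depends in part on this selection, and the shares by distance that follow have the same limit. By distance, 14 of 1106 DRACH A within 100 nt of an exon junction were listed (1.27%, 0.756 to 2.11%) and 98 of 1083 farther away (9.05%, 7.48 to 10.9%). Over all protein-coding genes with a site these shares were 1.39 and 6.80%. The 9 sites in internal exons under 200 nt scored 0.510 to 0.804 with a median of 0.576, and the 103 in last exons had a median of 0.754.

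**Figure D3:**
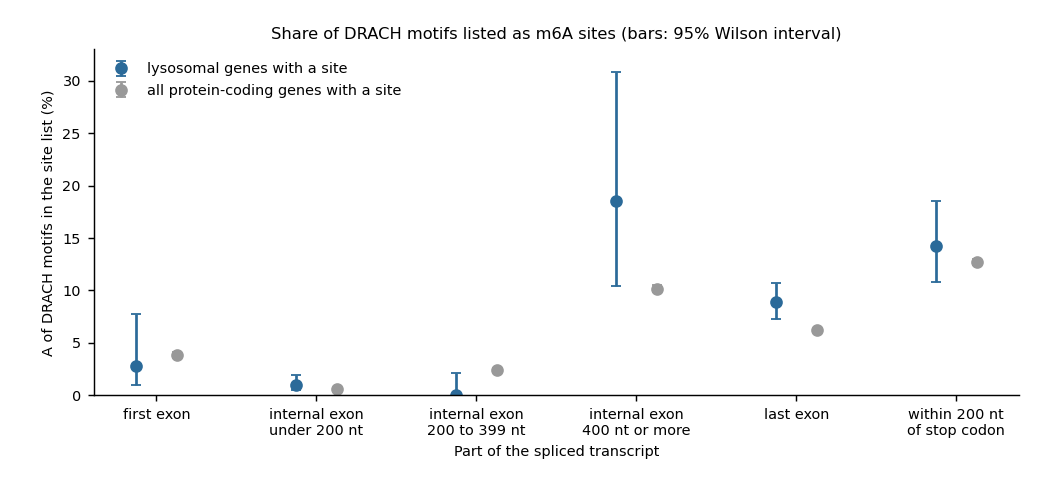
Share in percent (y axis) of the A in DRACH motifs that were listed as m6A sites, by part of the spliced transcript (x axis), for lysosomal genes with a site and all protein-coding genes with a site; bars are 95% Wilson intervals. The share of the lysosomal genes is 0.976% in internal exons under 200 nt and 18.5% in those of 400 nt or more.

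At the motif, 113 of the 126 sites (89.7%, 83.1 to 93.9%) were at DRACH, against 92.0% over all protein-coding genes. GGACT was the most frequent with 20 sites (15.9%, 10.5 to 23.2%), followed by GAACT with 17 (13.5%), GGACA with 16 (12.7%) and AGACT with 15 (11.9%), so that 4 motifs made up 68 sites. Over all protein-coding genes these 4 made up 19.2, 13.1, 13.2 and 12.3%. GGACC made up 13 sites (10.3%, 6.13 to 16.9%), against 6.88% over all, and its interval includes that value. Of the 13 sites outside DRACH, in 10 genes, 8 still had C after the A. The other 5 were the GGAAC of Neu1, the GGATT of Ctsd and of Manba, the GGATG of Ctsz and a GGAGG of Hexa at 0.513.

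The scores of the 126 sites had a median of 0.737, against 0.734 over all protein-coding genes. Sites in the 3' UTR had a median of 0.771 and sites in the CDS one of 0.679. At least 0.9 was reached by 11 sites (8.73%, 4.94 to 15.0%), against 8.88% over all. They were in Ctsz, Neu1, Gusb, Sgsh, Mitf, Tfe3, Atp6ap1 and Manba, all of them at DRACH.

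**Figure D4:**
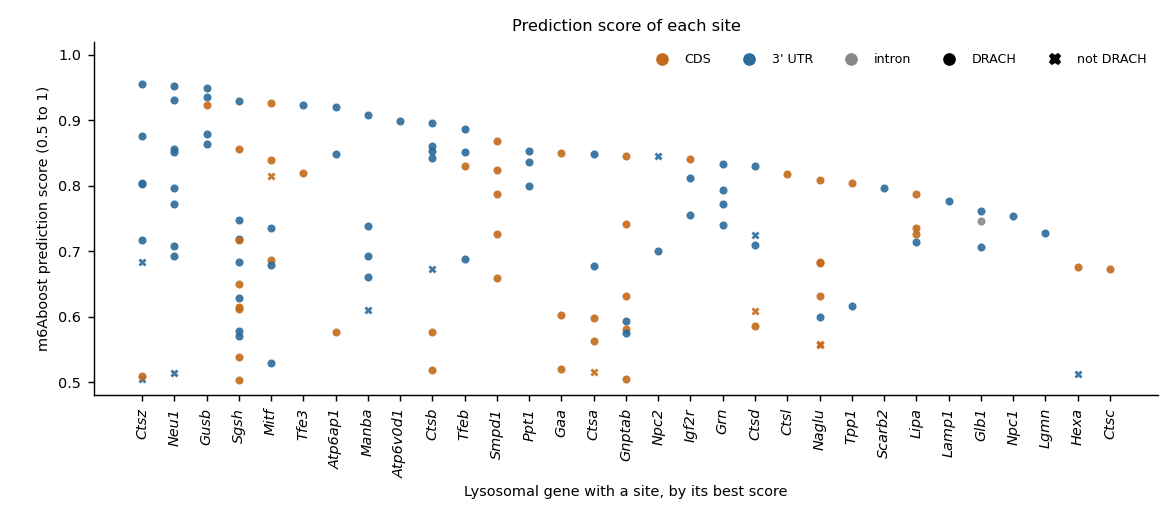
Prediction score (y axis) of every site in the 31 lysosomal genes with one, ordered by their best score (x axis); colours mark the region and crosses mark sites outside DRACH. Best scores run from 0.955 in Ctsz to 0.672 in Ctsc, and the Npc2 cross at 0.845 is the highest outside DRACH.

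Other genes of the lysosomal system, from lists that do not overlap the 51, had a site in 61 of 105 (58.1%), with 234 sites in all. The share of all protein-coding genes was 23.1%, which again includes genes the cells do not express. These lists too were chosen with earlier results of these data known. Among further hydrolases and proteins that modify, activate or inhibit them or act beside them (such as Sumf1, Gm2a, Cst3 and Hgsnat) 18 of 23 had a site. One of them was Pla2g15, the lysosomal phospholipase A2, with 6 sites and a best score of 0.898. Among further membrane proteins and transporters 9 of 22 had a site, led by the calcium and sodium channel Tpcn1 and the cysteine transporter component Mfsd12 with 8 each. All 8 in Mfsd12 were in the 3' UTR, while 7 in Tpcn1 were intronic on the chosen transcript and 2 of the 8 also lie in 2510016D11Rik.

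Of 12 further pump subunits 6 had a site, with no more than 3 in any. Atp6v1b2, of the ATP-hydrolysing sector, had 3 near its stop codon, and both sites of Atp6v0e were outside its chosen transcript. Of 26 genes from a list on TFEB control, mTORC1 and nutrient sensing, which also holds Tfec and Ppp3cb, 12 had a site. It was led by Fnip2, a partner of folliculin, with 12 sites and Rptor, the mTORC1 scaffold raptor, with 10. Of 22 matched trafficking genes 16 had a site. Vps18 with 17 and Vps33a with 13, both of the tethering complexes that fuse vesicles with the lysosome, had the most, at best scores of 0.905 and 0.963. In Vps18 14 of the sites were in the CDS, and in Vps33a all 13 were in the 3' UTR.

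Of 10 genes typical of macrophages, the labelled cell type, 6 had a site, among them Csf1r with 11, Cd14 with 13, Spi1 with 6, Fcgr1 with 6 and Lyz2 with 2, and of 8 marker genes of other cell types 0 did, beside 23.1% of all protein-coding genes. Itgam, Adgre1, Cd68 and Mrc1 had none. A missing site says nothing of expression, for these or for the markers of other cell types.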

How the data were processed

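RAW264.7 poly(A)+ RNA from 3 untreated replicates was profiled by miCLIP2. Per the labels and methods, the authors mapped reads with STAR 2.7.3a to GRCm38.p6 and then removed duplicates by UMI-tools 1.0.0, with SAMtools 1.9 and bedtools 2.27.1 also named in the submitters' processing notes. They called peaks with PureCLIP and scored peaks at A with m6Aboost. The deposited values are prediction scores above 0.5, in 1 list pooled over replicates, with no counts or coverage, so only shares with 95% Wilson intervals are given.

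Sites were assigned by gene span and strand in GENCODE M21 (the authors used a later release) and placed on the transcript with the longest CDS, with Python 3.11.15, NumPy 2.4.6, SciPy 1.17.1 and pysam 0.24.0. This placement recovered 10000 of 10000 sites in simulated data. Figures used matplotlib 3.10.9. Genes with at least 5 sites were described by their own sites and others by count, best score and region; sequences were those of the best sites of the 10 genes with most sites (ties by best score), of the best-scoring gene of each remaining role, and of sites outside DRACH scoring at least 0.7. From each further list the 2 genes with most sites were named, except where a gene is not reported here. Hgs matched no single protein-coding gene. Members and lists were chosen with earlier results of these data known. Alternatives were a minimum score of 0.7 or 0.9, merging sites within 5 nt, other transcript choices, other windows and RRACH in place of DRACH.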

Additional observations from a re-analysis of the deposited data

How the results depend on the processing

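With a minimum score of 0.7, 76 sites remained, of which 28.9% were coding and 69.7% lay in the 3' UTR, 96.1% were at DRACH, 46.7% had a neighbour within 100 nt, and 3.42% of DRACH A in genes with a remaining site were listed. With a minimum of 0.9, 11 sites in 8 genes remained, with 18.2% coding, 81.8% in the 3' UTR, 90.9% in the last exon, 100% at DRACH, 18.2% with a neighbour, 2.20% of DRACH A listed and a median score of 0.929, which the minimum itself raises. Taking any transcript with the 3' UTR first, 24.6% of sites were coding and 74.6% fell in a 3' UTR. Windows of 100 and 400 nt around the stop codon held 22.4 and 64.8% of sites. A neighbour lay within 50 nt for 44.8% and within 200 nt for 72.0%. At RRACH, in which the first base is A or G, were 77.8%. The other 42 recomputed values comprised shares within the main Wilson interval, counts of 120 to 125 sites and 29 to 31 genes, and median scores within the main quartiles of 0.632 to 0.840, with the median at 0.821 for a minimum score of 0.7. No paired analysis was possible because there is 1 condition and its replicates were deposited pooled, which also kept any of them from being left out. Reads per site are not in the list, so depth limits every count of genes without a site.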

Other observations

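Within the CDS, the modified A was at codon position 1 in 12 of the 50 lysosomal sites, at position 2 in 22 and at position 3 in 16. Of the 50, 19 also lie in a 3' UTR of another transcript, so their codon position depends on the transcript chosen. Codon positions were not counted over all protein-coding genes, so this split has no background. Sites within 5 nt of another were 4 of the 126, the adjacent pair in Neu1 and the TGACT pair in Ctsd.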
